A study of Mus musculus with 70 samples.

Results

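The genes examined here encode the receptors for the main excitatory and inhibitory transmitters of the brain, glutamate and GABA. They were taken by name as protein-coding genes: the AMPA (Gria), kainate (Grik), NMDA (Grin) and delta (Grid) subunits, the metabotropic glutamate receptors (Grm), the GABA-A subunits (Gabra, Gabrb, Gabrg, Gabrd, Gabre, Gabrp, Gabrq and Gabrr) and the GABA-B receptors (Gabbr). The rule found 47 of the 50789 genes in the count table: 4 AMPA, 5 kainate, 7 NMDA, 2 delta, 8 metabotropic glutamate, 19 GABA-A and 2 GABA-B genes. The rule reads gene names alone.

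The study sequenced polyA-selected RNA from 2 mutant lines and their controls. Cic encodes Capicua, a transcriptional repressor with a short and a long isoform, and the lines lack either the short one (Cic-S-KO) or the long one (Cic-L-KO). Controls were wild-type (WT) littermates, and only the brain groups were used: cortex and cerebellum of 12-week-old mice, each with 8 WT, 7 Cic-S-KO and 8 Cic-L-KO libraries, 46 in all, with 20440799 to 32548951 reads assigned to genes. The WT mice were littermates of both lines pooled into 1 control group. The labels give neither the line of each WT mouse nor the way the isoforms were deleted, the sex, or whether each library is a separate animal, so p-values measure the spread between these libraries.

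AMPA, kainate and NMDA receptors are ion channels built of several subunits that carry fast excitatory currents, and their subunit mix sets how long they open and what they let through. Metabotropic glutamate receptors act through G proteins, several of them on the presynaptic side, where they limit release. GABA-A receptors are chloride channels, also of mixed subunits: those with a gamma subunit sit mainly at synapses, those with the delta subunit mainly outside them. GABA-B receptors are obligate pairs of the proteins from Gabbr1 and Gabbr2 and signal through G proteins. In the cerebellum, granule neurons are known for Gabra6, Gabrd and Grin2c.

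Capicua binds DNA octamers of the form TGAATGAA or TGAATGGA. RefSeq promoter windows of build GRCm38.p6, from 250 bases before to 50 bases after a gene's start, were available for 32 of the 47 members. On both strands, TGAATGAA was in 1.30% and TGAATGGA in 1.21% of all 32851 windows, and either in 2.47%. Of the 39 windows of members 1 held either, that of Gabrg3. The Gabrg3 match is shown as the single one found, with the octamer in capitals; it lies on the opposite strand and begins at base 21 of the transcript (GRCm38.p6 chr7:57387178-57387205, minus strand). The 250 bases before the starts of Grm2 (chr9:106656110-106656359, minus strand) and Grm3 (chr5:9725353-9725602, minus strand), which fell most among the glutamate receptors in Cic-L-KO cortex, and of Gabra6 (chr11:42321073-42321322, minus strand), the subunit that separated the regions most, follow for comparison and held no match.
Gabrg3: caactccgagTCCATTCAaacctcgctg
Grm2: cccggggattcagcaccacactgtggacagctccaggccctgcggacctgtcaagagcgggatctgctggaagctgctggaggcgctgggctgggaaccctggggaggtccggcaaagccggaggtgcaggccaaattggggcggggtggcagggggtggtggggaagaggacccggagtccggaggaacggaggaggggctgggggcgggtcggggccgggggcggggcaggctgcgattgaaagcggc
Grm3: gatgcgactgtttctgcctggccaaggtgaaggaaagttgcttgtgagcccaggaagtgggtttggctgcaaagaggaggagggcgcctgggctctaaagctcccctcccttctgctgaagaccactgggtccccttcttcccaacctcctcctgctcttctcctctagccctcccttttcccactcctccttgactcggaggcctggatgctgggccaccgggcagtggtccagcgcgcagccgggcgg
Gabra6: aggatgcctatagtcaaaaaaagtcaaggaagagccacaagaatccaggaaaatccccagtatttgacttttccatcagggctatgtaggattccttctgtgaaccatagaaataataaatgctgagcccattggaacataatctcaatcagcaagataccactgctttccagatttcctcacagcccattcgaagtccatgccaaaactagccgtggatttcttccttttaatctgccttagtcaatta
Of these stretches, that of Grm2 was 71.2% G and C with 16 CpG pairs, that of Grm3 62.4% with 8, and that of Gabra6 40.8% with 2. No match says only that these letters are not in the window.

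In WT mice, levels per length (RPKM, reads scaled to library size and divided by the kilobases of exon) ran from a mean of 283 ± 31 (SD, n = 8) for Gabra6 in cerebellum down to at most 0.444 RPKM in both regions for Gabre, Gabrp, Gabrq, Gabrr1, Gabrr2, Gabrr3, Grin3b and Grm6. Gabbr1 was the highest member in cortex, at 125 ± 3.1 RPKM (SD, n = 8). Gria1, a subunit of calcium-permeable AMPA receptors, stood at 72.2 ± 4.3 RPKM there, within whose spread Gabbr2 lay, at 68.8 ± 4.47 RPKM. In cerebellum Gria1 and Gabbr1 stood at 133 ± 12 and 125 ± 6.9 RPKM, which overlapped in their spread.

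**Figure D1:**
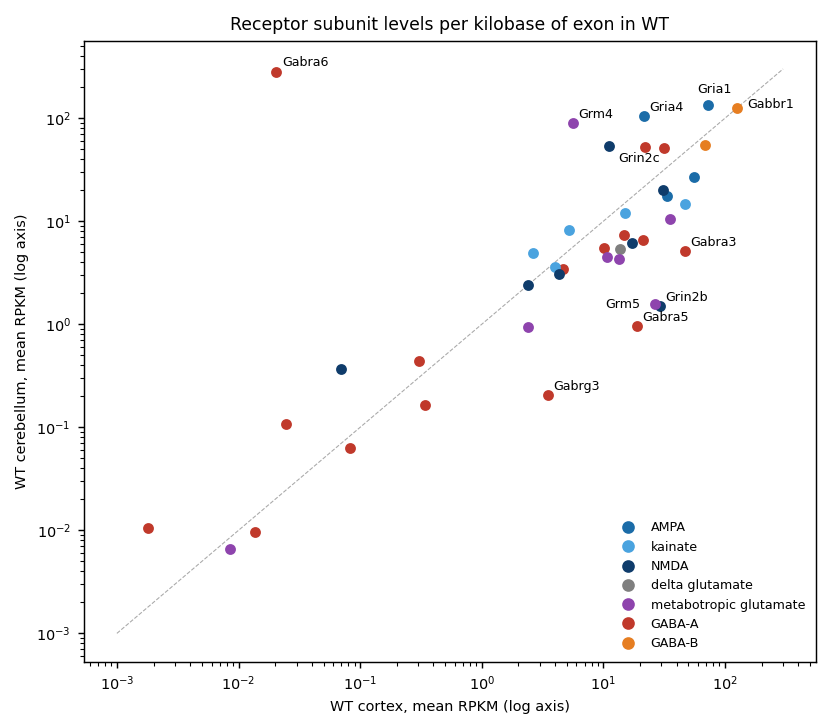
Mean RPKM of 42 members in the 8 WT cortex libraries (horizontal, log axis) and the 8 WT cerebellum libraries (vertical, log axis), coloured by family, with the dashed line marking equal levels. Gabra6 stands far above the line and Gabra5, Grin2b, Grm5, Gabrg3 and Gabra3 below it.

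Between WT cortex and WT cerebellum 37 of the 43 members tested differed (edgeR quasi-likelihood test, Benjamini-Hochberg adjusted p under 0.05), 24 higher in cortex and 13 higher in cerebellum; 73.5% of all genes tested differed. The median log2 ratio of cortex to cerebellum was 0.45 over the members and -0.04 over all genes tested. Gabra6 ranged from 581 to 833 CPM (reads scaled to library size and not to gene length, median 713) in WT cerebellum and from 0 to 0.243 CPM (median 0.0191) in WT cortex. A fitted fold against so few reads depends on the prior count, so none is given. Large differences were also those of Gabra5, an alpha subunit of extrasynaptic receptors, Grin2b, the NMDA subunit typical of young synapses, Grm5 and Gabrg3. Gabra5 was 4.31 ± 0.418 (SE), Grin2b 4.27 ± 0.084, Grm5 4.09 ± 0.173 and Gabrg3 4.09 ± 0.166 higher in cortex on the log2 scale. The NMDA genes were divided: Grin2a and Grin2b were higher in cortex and Grin2c in cerebellum.

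Several features of the libraries touch the results that follow. Reads of Cic, counted over the whole gene, had medians of 166, 257 and 312 CPM in WT, Cic-S-KO and Cic-L-KO cortex and of 185, 211 and 205 CPM in cerebellum. They were higher in both knockouts' cortex and in Cic-L-KO cerebellum (edgeR adjusted p = 1.35e-12, 9.49e-18 and 0.0253), and a count over the gene does not check the deletion of 1 isoform. Tissue markers followed the labelled regions: Cbln3, a granule neuron gene, had a median of 1729 CPM in WT cerebellum and 0.684 CPM in WT cortex, and Tbr1, an excitatory cortical factor, 164 CPM in WT cortex and 0.783 CPM in WT cerebellum. Fezf2 had no read in any WT cerebellum library. In 5 cerebellar libraries (WT replicates 1 and 2, Cic-S-KO replicate 6, Cic-L-KO replicates 3 and 4) Hox genes, which mark hindbrain behind the cerebellum, summed to between 9.64 and 67.6 CPM, against at most 4.54 CPM in the other 18. Y-linked reads showed that in every group the libraries numbered 1 to 4 came from males and those numbered 5 to 8 from females, so sex and library number cannot be told apart.

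In Cic-L-KO cortex the receptor genes fell more often than they rose. Of the 41 members tested there, 30 changed, 7 upward and 23 downward (edgeR quasi-likelihood test, Benjamini-Hochberg adjusted p under 0.05); 43.2% of all genes tested changed, 3624 higher and 3714 lower. The median log2 fold change was -0.16 over the members and 0.01 over all genes tested. Metabotropic receptors fell as a group in count, with 6 of 7 tested lower and none higher, and Grm2 showed the largest change of any member. Of 5 kainate subunits 2 were higher, Grik1 and Grik4, and none lower, a share called of 40% that lies near that of all genes. In bulk tissue, fewer cells of a type and less RNA per cell cannot be told apart.

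**Figure D2:**
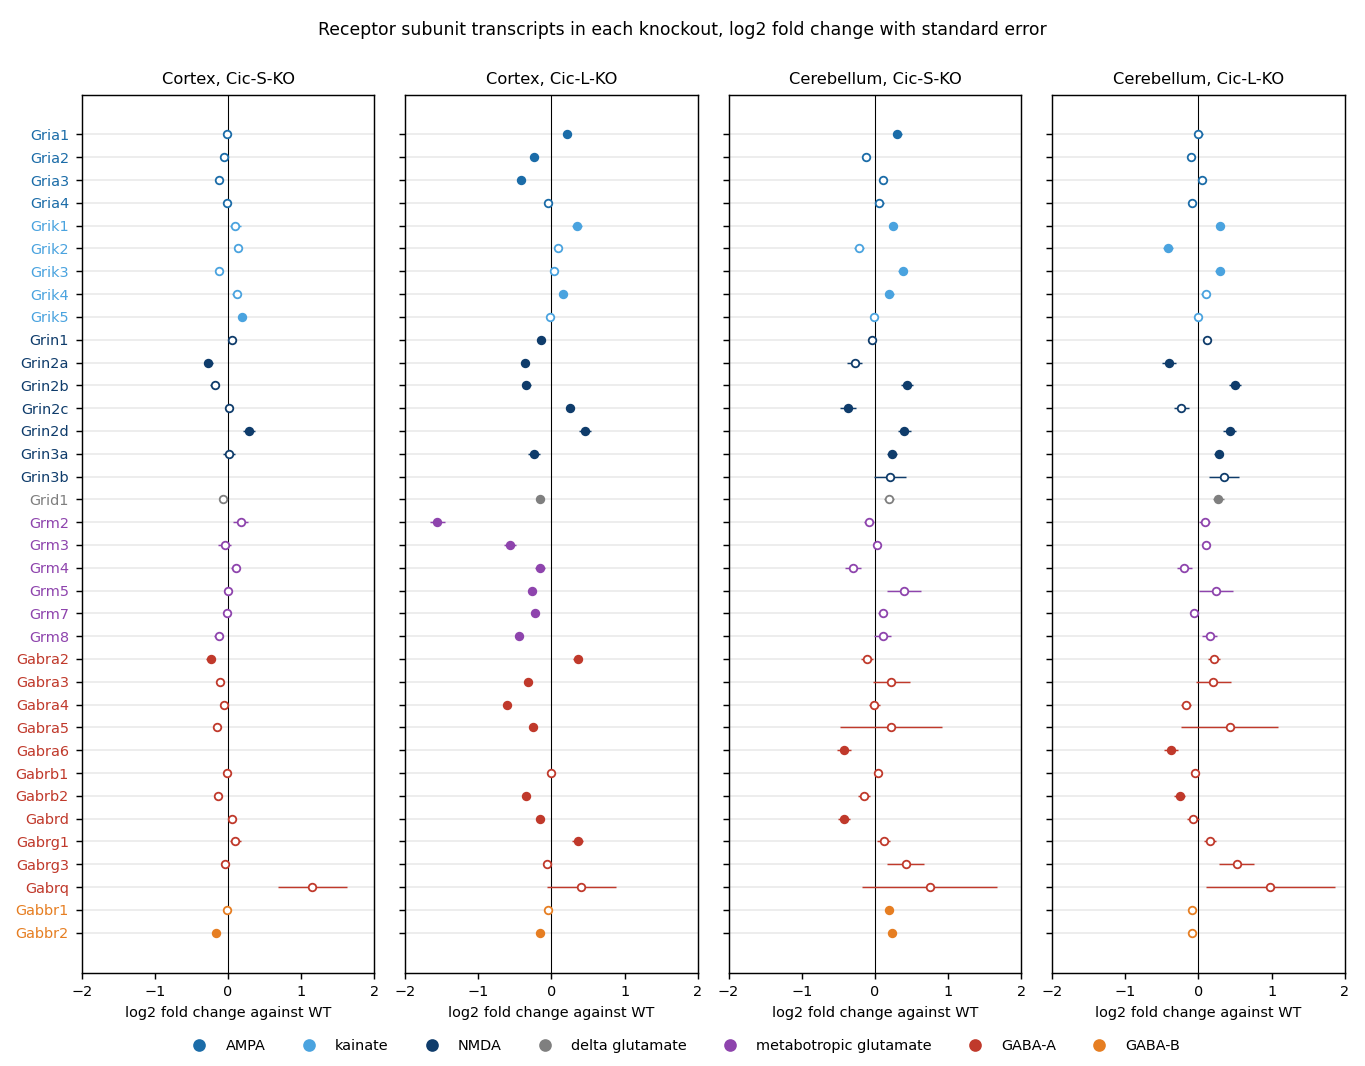
Log2 fold change against WT (horizontal, points with standard errors) of 36 members in the 4 knockout comparisons that tested them, coloured by family and filled where the adjusted p was under 0.05. Gabrr2 and Gabre, with a mean under 1 CPM in every group, are among those not drawn. In the Cic-L-KO cortex panel the metabotropic receptors drawn lie filled on the lower side, Grm2 farthest at -1.56.

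Grm2, a presynaptic receptor that inhibits release, ranged from 56.2 to 77.7 CPM (median 64.2) in WT cortex, from 67.5 to 83.8 CPM (70.8) in Cic-S-KO and from 17.2 to 33.1 CPM (20.5) in Cic-L-KO. All 8 Cic-L-KO libraries lay below every WT and Cic-S-KO library, and those of WT and Cic-S-KO overlapped. Grm2 was 2.95-fold lower in Cic-L-KO, a log2 fold change of -1.56 ± 0.106 (SE; edgeR adjusted p = 7.32e-11), and did not pass in Cic-S-KO (0.18, adjusted p = 0.328). Grm3, its close relative, which astrocytes also make, ranged from 91.6 to 120.1 CPM (108) in WT and from 65.9 to 78.4 CPM (70.3) in Cic-L-KO, with no overlap, and fell by 0.57 ± 0.081 on the log2 scale (edgeR adjusted p = 5.02e-06). Grm8, another presynaptic receptor, fell by 0.45 ± 0.060 (edgeR adjusted p = 4.51e-07), though its highest Cic-L-KO library, at 18.6 CPM, reached the lowest WT library. The other 3 that passed fell by 0.16 to 0.27 on the log2 scale, Grm5, which couples to calcium release, by 0.27.

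Among GABA-A subunits, 8 of 15 tested fell and 2 rose in Cic-L-KO cortex. Gabra4, an alpha subunit that pairs with delta in the forebrain, ranged from 118 to 136 CPM (129) in WT, from 109 to 135 CPM (122) in Cic-S-KO and from 74.2 to 93.7 CPM (82.6) in Cic-L-KO. These last libraries again lay apart from both other groups, and Gabra4 fell by 0.61 ± 0.045 on the log2 scale (edgeR adjusted p = 3.79e-12). Gabra2 and Gabrg1 rose by the same amount, 0.36 on the log2 scale.

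Gabrg1, Gabra2, Gabra4 and Gabrb1 lie next to each other on chromosome 5, between 70751047 and 72149037. In Cic-L-KO cortex 2 of these rose, 1 fell and Gabrb1 stood at -0.01 ± 0.032 on the log2 scale. Other groups of neighbouring GABA-A genes are not described here. Gabra4 and Gabrb1 share exon bases on opposite strands. Since no source here states the strand setting of the counting, overlapping reads could be split between them, but the shared stretch was 0.756% of Gabra4's exon bases.

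**Figure D3:**
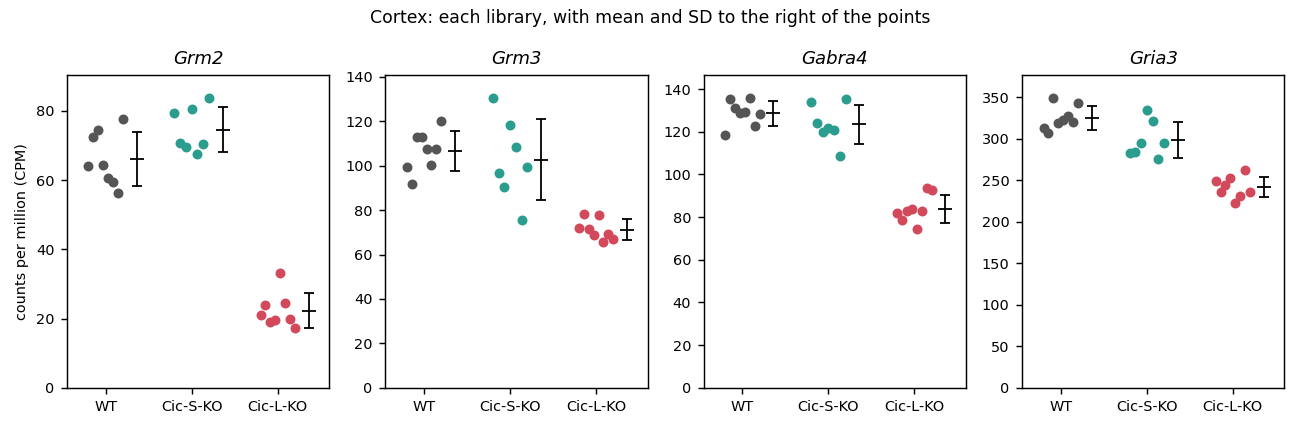
CPM (vertical, from 0) of Grm2, Grm3, Gabra4 and Gria3 in each cortex library, with the group mean and SD to the right of the points (n = 8 WT, 7 Cic-S-KO and 8 Cic-L-KO). For each gene the 8 Cic-L-KO libraries lie below all 8 WT libraries.

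All 6 NMDA subunits tested in Cic-L-KO cortex changed. Grin2d, a subunit of slowly closing receptors typical of interneurons, ranged from 13.8 to 17.5 CPM (16.1) in WT and from 19.2 to 25 CPM (21.2) in Cic-L-KO, without overlap, and rose by 0.46 ± 0.077 on the log2 scale (edgeR adjusted p = 1.51e-05). Grin2c rose by 0.25, while Grin1, the obligatory subunit, fell by 0.14, Grin2a by 0.36, Grin2b by 0.34 and Grin3a by 0.24. AMPA subunits were split as well. Gria3 ranged from 308 to 350 CPM (322) in WT and from 223 to 262 CPM (241) in Cic-L-KO, without overlap, and fell by 0.42 ± 0.040 (edgeR adjusted p = 6.71e-10). Gria2, the subunit that makes AMPA receptors impermeable to calcium, fell by 0.24, Gria1 rose by 0.22, and Gria4 did not pass (-0.05, adjusted p = 0.358). Grid1, a delta receptor gene, fell by 0.16, and of the GABA-B genes Gabbr2 fell by 0.16 while Gabbr1 did not pass (-0.05, adjusted p = 0.169).

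Some cell-type markers changed in the same libraries. The summed level of 6 cortical excitatory neuron markers ranged from 2041 to 2264 CPM in WT and from 1596 to 1855 CPM in Cic-L-KO cortex. Of the 6, 3 were lower, Slc17a7 (-0.38), Rorb (-0.47) and Tbr1 (-0.45), and 1 was higher, Cux2 (0.18). Neurod6 and Fezf2 did not pass, and a sum follows its most abundant marker most. The summed level of 7 inhibitory neuron markers ranged from 1003 to 1123 CPM in WT and from 1158 to 1338 CPM in Cic-L-KO, with 3 higher and 1, Vip, lower. Endothelial markers rose in 2 of 3, astrocyte markers in 2 of 5 and microglial markers in 1 of 4. No oligodendrocyte marker (of 5) or precursor marker (of 3) passed. Of all genes tested there, 21.4% were higher and 21.9% lower, so small counts such as 1 of 4 lie near that share. The markers' part in the receptor changes was not tested.

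In Cic-S-KO cortex fewer receptor genes changed than in Cic-L-KO cortex, 17.1% of those tested against 73.2%. Of 41 tested, 7 passed, 2 upward and 5 downward (edgeR quasi-likelihood test, Benjamini-Hochberg adjusted p under 0.05), beside 6.53% of all genes tested; the median log2 fold change was -0.02 over the members. No AMPA, delta or metabotropic gene passed. Grin2d rose by 0.29 ± 0.079 (edgeR adjusted p = 0.0276), from a WT median of 16.1 to 17.9 CPM with a range of 15.5 to 22.9 CPM that overlapped WT. Grin2a, the NMDA subunit of mature synapses, ranged from 222 to 282 CPM (250) against 270 to 356 CPM (316) in WT and fell by 0.27 ± 0.062 (edgeR adjusted p = 0.012). Gabra2, an alpha subunit common in forebrain, fell by 0.24 (edgeR adjusted p = 0.0188) and Gabbr2 by 0.16 (adjusted p = 0.0316).

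Grik5, which encodes a kainate subunit of high affinity, is the member nearest to Cic, 195358 bases away on chromosome 7 (25009849 to 25072346). Its Cic-S-KO cortex libraries held 251 to 294 CPM (276) and its WT ones 221 to 251 CPM (247), and it rose by 0.19 ± 0.036 on the log2 scale (edgeR adjusted p = 0.00231), so that the lowest Cic-S-KO library stood level with the highest WT one. It did not pass in Cic-L-KO cortex (-0.02, adjusted p = 0.669) or in either knockout's cerebellum (-0.01 in both). When counts were adjusted for GC content, neither Grik5 (0.10, adjusted p = 0.0993) nor Grin2d (0.19, adjusted p = 0.138) passed in Cic-S-KO cortex, and Gabra2 did not pass when the Cic-L-KO libraries were left out of the fit (adjusted p = 0.0705).

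The largest fold in Cic-S-KO cortex belonged to Gabrr2, a rho subunit best known from retina. It is a member and is counted above, but lay below the 1 CPM set for giving values and was picked out after its values were seen. It had 0 to 0.255 CPM (median 0.0984) in Cic-S-KO cortex, 0.312 to 0.955 CPM (0.710) in WT and 0.192 to 0.775 CPM (0.474) in Cic-L-KO. Every Cic-S-KO library lay under every WT library, with a fitted log2 fold change of -2.29 ± 0.382 (edgeR adjusted p = 0.000627). It was lower in Cic-S-KO cerebellum too, by 1.54 ± 0.482 (edgeR adjusted p = 0.0463), where the ranges overlapped. All of these levels rest on few reads. In cortex the gene was kept for testing through its WT and Cic-L-KO reads. Since it was also picked for its values, this separation and p-value are no independent support, and the size of the fold is uncertain. With the sexes fitted apart, a setting added after seeing the data, 3 of the members passed in Cic-S-KO cortex in females and 0 in males (edgeR, with fewer libraries). A single fit of genotype and sex together gave 1 and 0, beside 3.62% and 0.204% of all genes tested. Of the marker lists, 2 of 5 oligodendrocyte markers rose and 1 of 7 inhibitory neuron markers fell in Cic-S-KO cortex. None passed among those of excitatory neurons, astrocytes, precursors, microglia and endothelium. Of all genes tested there, 2.83% were higher and 3.70% lower.

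Set directly against Cic-L-KO, Cic-S-KO cortex differed in 26 of 41 members, 19 higher and 7 lower, beside 33.9% of all genes tested. Among the 5 with the smallest p were Grm2, 1.74 ± 0.108 higher in Cic-S-KO on the log2 scale (edgeR adjusted p = 1.81e-11), Gabra4, 0.56 higher, Gabra2, 0.59 lower, and Gria3, 0.30 higher. In each of these genes the libraries of the knockouts did not overlap. Gabra2 passed in opposite directions in the 2 knockouts: its median was 80.1 CPM in WT, 64.4 CPM in Cic-S-KO and 98 CPM in Cic-L-KO.

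In the cerebellum the balance was different. In Cic-S-KO cerebellum 15 of 43 members passed, 10 upward and 5 downward (edgeR quasi-likelihood test, Benjamini-Hochberg adjusted p under 0.05), beside 8.23% of all genes tested, with a median log2 fold change of 0.11 over the members and 0.01 over all genes. Among those that rose were NMDA (Grin2b, Grin2d and Grin3a), kainate (Grik1, Grik3 and Grik4) and GABA-B genes (Gabbr1 and Gabbr2) and Gria1. Among those that fell were Grin2c and the GABA-A genes Gabra6, Gabrd and Gabrr2. No metabotropic gene passed.

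Grin2b ranged from 34.9 to 41.0 CPM (37.2) in WT cerebellum and from 39.1 to 63.5 CPM (51.9) in Cic-S-KO, and rose by 0.44 ± 0.087 on the log2 scale (edgeR adjusted p = 0.00327); 1 of the 7 Cic-S-KO libraries reached the WT range. Grik3, a kainate subunit of low affinity, ranged from 94.7 to 119 CPM (110) in WT and from 123 to 170 CPM (133) in Cic-S-KO, and rose by 0.38 ± 0.064 (edgeR adjusted p = 0.000953). The groups did not overlap. Grin2d ranged from 14.0 to 20.4 CPM (15.9) in WT and from 16.6 to 27.3 CPM (21.1) in Cic-S-KO, and rose by 0.40 ± 0.089 (edgeR adjusted p = 0.00657). Gria1, abundant in Purkinje cells and Bergmann glia, ranged from 700 to 941 CPM in WT and from 822 to 1167 CPM in Cic-S-KO and rose by 0.31 ± 0.063 (edgeR adjusted p = 0.00372). In both Grin2d and Gria1 the groups overlapped. Both GABA-B genes rose, Gabbr1 by 0.19 and Gabbr2 by 0.24.

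The subunits typical of granule neurons fell. Gabra6 ranged from 581 to 833 CPM (713) in WT and from 359 to 650 CPM (513) in Cic-S-KO, a change of -0.42 ± 0.098 (edgeR adjusted p = 0.0103). Gabrd ranged from 128 to 177 CPM (148) in WT and from 81.1 to 123 CPM (119) in Cic-S-KO, without overlap, a change of -0.42 ± 0.087 (edgeR adjusted p = 0.00467). Grin2c fell by 0.37 ± 0.112 (edgeR adjusted p = 0.043), from a median of 266 to 212 CPM. Granule neuron markers fell in the same libraries, with 4 of 7 lower and none higher, and their summed level ranged from 4313 to 5592 CPM in WT and from 3083 to 4675 CPM in Cic-S-KO. Inhibitory neuron markers rose in 4 of 5 tested, with sums of 1475 to 1820 CPM in WT and 1822 to 2224 CPM in Cic-S-KO, and Purkinje cell markers in 2 of 6, with sums of 7323 to 10816 and 9324 to 12332 CPM. Astrocyte markers rose in 2 of 5 and oligodendrocyte markers in 1 of 5. Of all genes tested there, 4.34% were higher and 3.89% lower. The markers' part in the receptor changes was not tested.

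**Figure D4:**
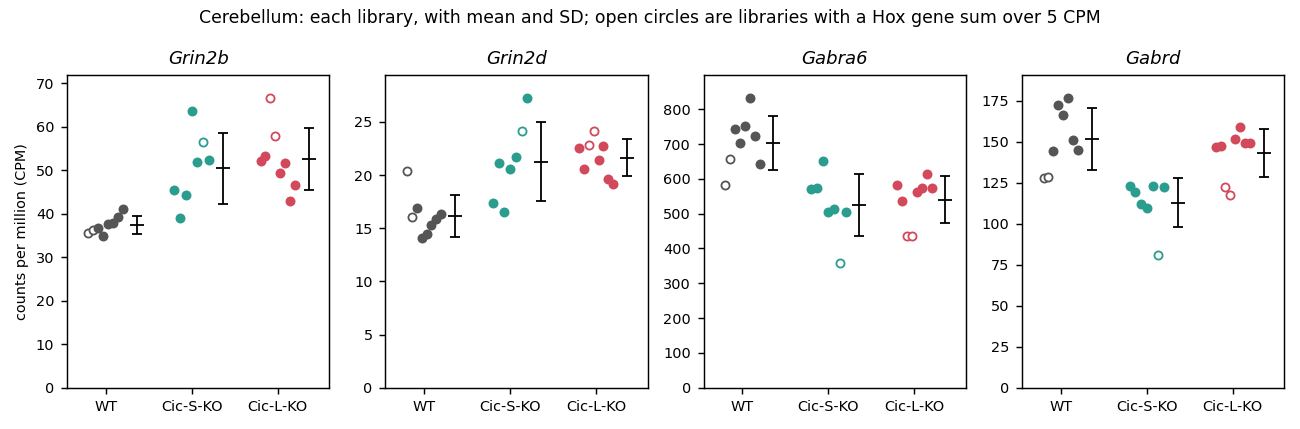
CPM (vertical, from 0) of Grin2b, Grin2d, Gabra6 and Gabrd in each cerebellum library, with the group mean and SD (n = 8 WT, 7 Cic-S-KO and 8 Cic-L-KO); open circles are the 5 libraries with a Hox gene sum over 5 CPM. Grin2b and Grin2d are higher and Gabra6 lower in both knockouts, and Gabrd is lowest in Cic-S-KO, where the library with Hox reads lies at 81.1 CPM.

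Without the 5 libraries with Hox reads, a setting chosen after the values were seen, 15 members passed in Cic-S-KO cerebellum. Gabra6 stood at -0.40, Gabrd at -0.43 and Grin2b at 0.39 on the log2 scale in that fit. Its share over all genes is not given here, so the count has no background beside it. Levels did differ in those libraries: Gabra5 had a median of 8.01 CPM in the 5 and 1.63 CPM in the other 18, Gabra3 36.3 and 19.2 CPM, and Gabra6 436 and 579 CPM. Gabra5 and Gabra3 did not pass in either knockout's cerebellum. By sex, all 15 members called in Cic-S-KO cerebellum kept their direction in females (4 knockout and 4 WT libraries) and in males (3 and 4). These members were called from the same libraries, so agreement in direction was largely built in and is no replication. The change was smaller in males for 10 of the 15, with a median absolute log2 fold change of 0.25 against 0.34 in females. No member passed in males, beside 0.0964% of all genes tested (edgeR fit of genotype and sex). In females 15 of 44 members passed, beside 12.8% of all genes. The difference between the sexes itself was called for no member (edgeR, smallest adjusted p = 0.0668) and for 13 of 17635 genes. At an unadjusted p under 0.05 (edgeR) were 13 of 44 members, beside 1904 of 17635 genes, a larger share of the members. The call of Grin2c was lost when no low-count filter was applied (adjusted p = 0.0984).

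In Cic-L-KO cerebellum 11 of 43 members passed, 6 upward and 5 downward (edgeR quasi-likelihood test, Benjamini-Hochberg adjusted p under 0.05), beside 21.5% of all genes tested, with a median log2 fold change of 0.04 over the members. Grin2b ranged from 43.0 to 66.7 CPM (51.9), above all 8 WT libraries, and rose by 0.50 ± 0.084 (edgeR adjusted p = 0.000165). Grin2d ranged from 19.2 to 24.2 CPM (22.0) and rose by 0.43 ± 0.086 (edgeR adjusted p = 0.000817), with 1 WT library, at 20.4 CPM, inside that range. Grik1 ranged from 30.6 to 37.2 CPM (32.6) in WT and from 35.7 to 45.1 CPM (41.3) in Cic-L-KO, and rose by 0.29 ± 0.050 (edgeR adjusted p = 0.000138). Grik3 rose by 0.29 and Grin3a, a subunit that lowers calcium entry, by 0.28, and Grid1 by 0.27. Without the libraries with Hox reads 13 members passed, Grin2b at 0.39 and Grin3a at 0.19 among them, again with no share over all genes beside the count. In females alone Gabra6 and Grin3a did not pass (edgeR adjusted p = 0.0528 and 0.171).

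Grik2, a kainate subunit that forms the channel core, ranged from 90.6 to 118 CPM (109) in WT and from 67.2 to 91.9 CPM (82.0) in Cic-L-KO, and fell by 0.42 ± 0.071 (edgeR adjusted p = 0.000163). Of its 8 Cic-L-KO libraries 7 lay under every WT library. Grin2a fell by 0.40 ± 0.096 (edgeR adjusted p = 0.0044), from a median of 110 to 82.4 CPM. Gabra6 ranged from 435 to 614 CPM (567) and fell by 0.38 ± 0.095 (edgeR adjusted p = 0.0062), with overlap at the top of its range. Gabrb2, a beta subunit, fell by 0.26. Granule markers fell here as well, 3 of 7 with sums of 3350 to 4627 CPM, inhibitory neuron markers rose in 4 of 5 with sums of 1848 to 2218 CPM, and no Purkinje cell marker passed. Of 5 astrocyte markers 1 rose, Gja1 (0.36), and 2 fell, Aqp4 (-0.22) and Aldh1l1 (-0.12), and of 3 precursor markers 1 rose, Pdgfra (0.29). All 3 endothelial markers were higher, with sums of 107 to 136 CPM against 75.2 to 96.8 CPM in WT. Of all genes tested there, 10.9% were higher and 10.6% lower. The markers' part was not tested.

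Cic-S-KO and Cic-L-KO cerebellum differed in 7 of 43 members, 5 higher in Cic-S-KO and 2 lower, beside 12.4% of all genes tested. DESeq2 called 11 members and the females alone 12, fits whose shares over all genes are not given here. Both GABA-B genes were higher in Cic-S-KO: Gabbr1, with a median of 1094 CPM against 909 CPM, by 0.27 ± 0.040 on the log2 scale (edgeR adjusted p = 3.37e-05), and Gabbr2, with 442 against 338 CPM, by 0.32 ± 0.052 (edgeR adjusted p = 9.17e-05). Gria1 was 0.31 higher and Gabrd 0.35 lower in Cic-S-KO. In WT the medians were 962 CPM for Gabbr1 and 361 CPM for Gabbr2, and in each of these genes Cic-L-KO did not pass against WT.

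The comparisons of the knockouts with WT share their WT libraries within a region, so their values are given side by side. Grin2d alone among the members rose in each of the 4, with log2 fold changes of 0.29 and 0.46 in Cic-S-KO and Cic-L-KO cortex and 0.40 and 0.43 in cerebellum; in Cic-S-KO cortex it did not pass with GC adjustment (0.19, edgeR adjusted p = 0.138). In cerebellum, with Cic-S-KO given before Cic-L-KO, Grin2b stood at 0.44 and 0.50, Gabra6 at -0.42 and -0.38, Grik3 at 0.38 and 0.29, and Grik1 at 0.24 and 0.29. In cortex, Grin2a stood at -0.27 and -0.36, and Gabbr2 at -0.16 in both. Gabrb1, Gabre, Gabrg3, Gabrq and Gria4 were tested in every comparison and passed in none of the 4. Gabrp, Gabrr1, Gabrr3 and Grm6 were too low to test in either region, and Gabra6 and Grin3b too low in cortex.

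Whether a knockout acted differently in the 2 regions was tested directly, as the log2 effect in cortex minus that in cerebellum. For Cic-L-KO 14 of 43 members differed, 2 with the higher effect in cortex and 12 with the lower, beside 23% of all genes tested. Grm2 differed most, by -1.65 ± 0.127 (edgeR adjusted p = 1.48e-13): its medians in cerebellum were 20.1, 19.1 and 21.7 CPM in WT, Cic-S-KO and Cic-L-KO, so that its level in Cic-L-KO cortex lay near that of the cerebellum. Grin2b fell in cortex and rose in cerebellum, a difference of -0.84 ± 0.105 (edgeR adjusted p = 5.51e-08). Grm3 differed by -0.68 and Gria3 by -0.46, and these fell in cortex without passing in cerebellum.

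For Cic-S-KO 11 of 43 differed, 3 with the higher effect in cortex and 8 with the lower, beside 4.5% of all genes tested. Grin2b differed by -0.62 ± 0.109 (edgeR adjusted p = 0.00107), Grik3 by -0.51 ± 0.086 (edgeR adjusted p = 0.000865) and Gabbr2 by -0.40 ± 0.073 (edgeR adjusted p = 0.00142). Gabbr2 fell in cortex and rose in cerebellum. Gabrd differed by 0.48 ± 0.101 (edgeR adjusted p = 0.00473) and Gabbr1 by -0.20 ± 0.049 (edgeR adjusted p = 0.0127). With no low-count filter the count for Cic-S-KO was 6, a fit whose share over all genes is not given here.

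**Figure D5:**
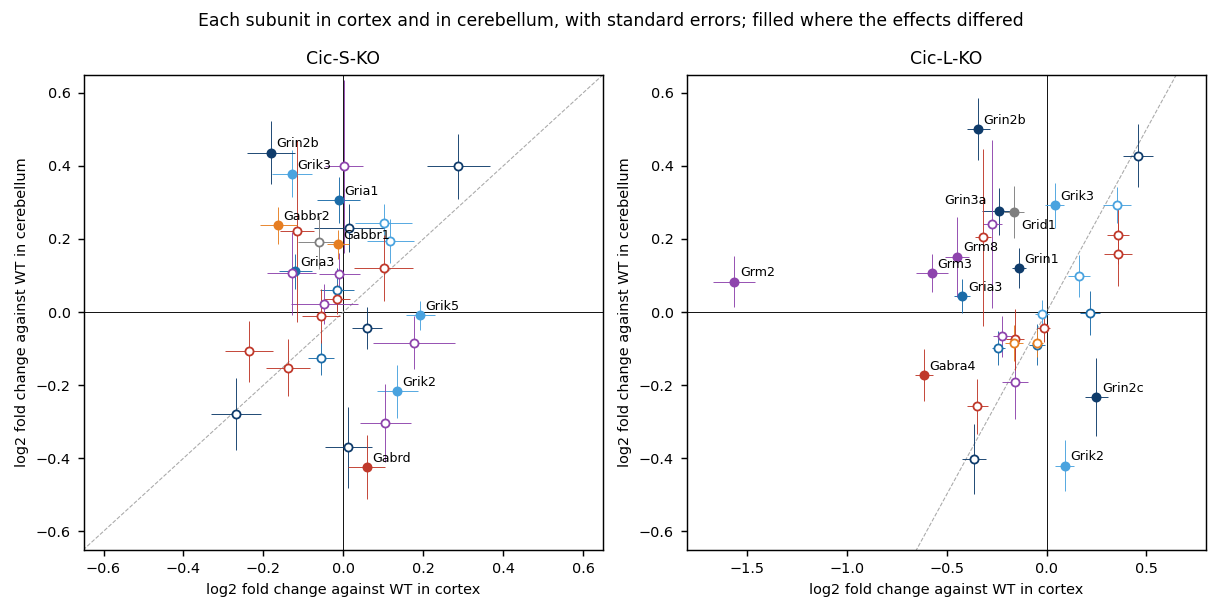
Log2 fold change against WT in cortex (horizontal) and in cerebellum (vertical) for 31 members with a WT mean of at least 5 CPM in both regions, with standard errors, for Cic-S-KO (left) and Cic-L-KO (right); points are filled and named where the effects in the regions differed at an adjusted p under 0.05, and the dashed line marks equal effects. Grm2 lies at -1.56 in Cic-L-KO cortex and near 0 in cerebellum.

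Ratios of partner subunits were taken within each library. Each was compared with WT by a two-sided exact permutation test, with Benjamini-Hochberg adjustment over the 16 tests and a smallest possible p of 0.000155. The log2 ratio of Grin2a to Grin2b, which rises as synapses mature, was 1.55 ± 0.22 (SD, n = 8) in WT cerebellum, 0.66 ± 0.32 (n = 8) in Cic-L-KO and 0.85 ± 0.42 (n = 7) in Cic-S-KO. All 8 Cic-L-KO and 5 of 7 Cic-S-KO libraries lay below every WT library (exact permutation test, adjusted p = 0.000622 and 0.00249). In cortex neither knockout passed (-1.23 ± 0.09 in WT, -1.25 ± 0.11 in Cic-L-KO and -1.32 ± 0.10 in Cic-S-KO).

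The log2 ratio of Gria1 to Gria2 was higher in every Cic-L-KO cortex library than in any WT one (-0.52 ± 0.14, n = 8, against -0.97 ± 0.10, n = 8; exact permutation test, adjusted p = 0.000622) and in every Cic-S-KO cerebellum library (1.36 ± 0.15, n = 7, against 0.94 ± 0.07, n = 8; exact permutation test, adjusted p = 0.000622). In Cic-S-KO cortex and Cic-L-KO cerebellum it differed by 0.04 and 0.10 and did not pass (exact permutation test, adjusted p = 0.706 and 0.0716). The log2 ratio of Gabbr1 to Gabbr2 rose by 0.15 in Cic-S-KO and by 0.12 in Cic-L-KO cortex (exact permutation test, adjusted p = 0.0124 and 0.0461) and did not pass in cerebellum (-0.05 and 0.00).

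Partners of the receptors were taken from 7 lists, with 62 genes in the table. Beside them, 6.53% of all genes tested passed in Cic-S-KO cortex and 43.2% in Cic-L-KO cortex. In cerebellum the shares were 8.23% for Cic-S-KO and 21.5% for Cic-L-KO. GABA synthesis and transport genes rose without exception among those that passed: of 8, 1 passed in the cortex of Cic-S-KO and 4 in that of Cic-L-KO, and 6 and 7 passed in their cerebella. Slc6a11, a GABA uptake carrier of astrocytes, was 0.56 higher in Cic-L-KO cortex on the log2 scale, and Slc32a1, which loads GABA into vesicles, 0.38 higher in Cic-L-KO cerebellum (edgeR adjusted p = 9.87e-10 and 3.79e-06). Of the genes for glutamate synthesis and transport, 3 of 7 passed in Cic-L-KO cortex (1 higher, 2 lower), 3 of 6 in Cic-S-KO cerebellum (2 higher, 1 lower), 1 of 6, lower, in Cic-L-KO cerebellum and none in Cic-S-KO cortex. Slc17a7, the vesicular glutamate transporter of cortical and granule neurons, fell in Cic-L-KO cortex (-0.38) and in the cerebellum of both Cic-S-KO (-0.27) and Cic-L-KO (-0.31). The partner and marker lists share genes, so their counts are not independent. Slc32a1 is also an inhibitory neuron marker, Cbln3 a granule marker, and Slc17a7 both an excitatory and a granule marker.

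Of 12 AMPA and kainate auxiliary subunits none passed in Cic-S-KO cortex, 7 passed in Cic-L-KO cortex (5 higher, 2 lower), 2 in Cic-S-KO cerebellum, both higher, and 6 in Cic-L-KO cerebellum (4 higher, 2 lower). Gsg1l, an AMPA auxiliary protein that damps the channel, fell by 0.92 in Cic-L-KO cortex (edgeR adjusted p = 5.99e-12), and Neto1 and Neto2, kainate auxiliary proteins, stood at -0.28 and 0.34 there. Of 17 excitatory scaffolds none, 9 (3 higher, 6 lower), 1 (higher) and 7 (5 higher, 2 lower) passed in the same order. The shares over all genes tested were 6.53%, 43.2%, 8.23% and 21.5% in that order. Grip1, which binds Gria2 and Gria3, rose by 0.53 and Dlg3 fell by 0.30 in Cic-L-KO cortex (edgeR adjusted p = 5.95e-10 and 2.36e-08). Of 8 inhibitory scaffold and assembly genes none, 3 (all lower), 2 (1 each way) and 3 (2 higher, 1 lower) passed, with Shisa7, a GABA-A auxiliary protein, 0.72 higher in Cic-L-KO cerebellum. Of 3 GABA-B auxiliary genes none, 2, 1 and 1 passed: Kctd12 was 0.43 higher in Cic-S-KO and 0.27 lower in Cic-L-KO cerebellum. Of 7 genes for cerebellins and neurexins, which bridge to delta receptors, 3 (all lower), 5 (3 higher, 2 lower), 3 (all lower) and 1 (lower) passed. Cbln4 stood at -0.47 in Cic-S-KO cortex and 1.83 in Cic-L-KO cortex (edgeR adjusted p = 0.0393 and 1.65e-10).

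Exons of 8 members share over 5% of their bases with another annotated gene, in each case on the opposite strand. For Grm2 that gene, Gm28111, had 0 to 7 reads per brain library and for Grin2d Gm45441 had 0 to 60. Grin3b shares 32.1% with Tmem259, which had 2240 to 3717 reads, so the low Grin3b level is uncertain.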

How the data were processed

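Whole-transcript polyA libraries of mouse cortex and cerebellum were used as the integer read counts per gene that the authors deposited. STAR 2.7 and build GRCm38.p6 are named in the submitters' processing notes; the counting tool, its strand setting and the annotation release are not given in the sources used here. Every column was tied to a sample by its label (0 columns without one), and 4 listed partner or marker genes were not analysed here. Some members and 1 of the 4 ratios are not reported here; they remain in the counts. The members, the partner and marker lists and the tests were chosen with earlier results of these data known.

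Counts were fitted with edgeR 4.0.16 (R 4.3.3; filterByExpr, TMM scaling, robust quasi-likelihood test), per region over the 3 genotypes, and over all 46 brain libraries for the regions and for interactions. P-values were adjusted over all genes tested by the Benjamini-Hochberg method at 0.05, and the fold change's standard error was its size divided by the square root of F. Levels are CPM after TMM scaling over the 46 libraries; RPKM divides by the exon union of GENCODE M21, which 50639 of the 50789 identifiers matched without version. Libraries held 20440799 to 30464699 reads in cerebellum and 20730808 to 32548951 in cortex. Of 154 pairs of libraries within groups none was identical, and the lowest chi-square per degree of freedom was 4.17. Ratios were log2 with a prior count of 0.5.

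Named with values were up to 8 members with the largest fold change among those past the threshold and at 1 CPM or more in each knockout comparison, the 5 with the smallest p in each knockout difference and interaction, the 6 largest between WT regions, the ratio partners and any within 1 Mb of Cic. The fit was tested on simulated data. For Cic-L-KO cortex 180 of 197 changed genes were recovered over 16759 genes, with 11 false calls. For Cic-L-KO cerebellum 171 of 196 were recovered over 16454, with 5 false calls. For the Cic-L-KO interaction 138 of 198 were recovered over 17647, with 4 false calls. The median fitted log2 size was 0.996, 1.00 and 0.999 in that order. Members called in Cic-L-KO cortex had a median absolute log2 fold change of 0.29, and recovery at that size was not tested. Alternatives were DESeq2 1.42.0, other scaling and filters, a GC adjustment, a replicate block and fitting only the genotypes compared; the splits by sex and by Hox reads were added after seeing the data.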

Additional observations from a re-analysis of the deposited data

Results flagged for a closer look

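Effects of Cic-S-KO differed between the regions, by edgeR's test of the log2 effect in cortex minus that in cerebellum, for Grin2b (-0.62), Grik3 (-0.51), Gabbr2 (-0.40), Gabrd (0.48) and Gabbr1 (-0.20). Those of Cic-L-KO differed for Grm2 (-1.65), Grin2b (-0.84), Grm3 (-0.68) and Gria3 (-0.46).

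A single library stood apart from its group in 10 of 123 sets of values examined, where chance gives about 1 in 20, or 6.15. In Cic-S-KO replicate 6, Gabbr2 was lowest in cortex (366 CPM), and in cerebellum, in the library with Hox reads, Gabra5 was highest (10.7 CPM) and Gabrd (81.1 CPM) and Gria2 (326 CPM) lowest. In WT cerebellum replicate 1, which also had Hox reads, Grik2 was lowest (90.6 CPM) and Grin2d (20.4 CPM) and Grm5 (24.0 CPM) highest. Cic-L-KO cerebellum replicate 1 was highest for Gria1 (943 CPM), Cic-L-KO cortex replicate 5 for Grm2 (33.1 CPM), and WT cortex replicate 5 for Gabra6 (0.243 CPM).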

How the results depend on the processing

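Of 591 recomputed calls of named members, 559 kept their direction and side of the threshold, 26 lost the call, 1 gained it and 5 changed sign. The sign changes were all of uncalled Grik5: 0.0491 (Cic-L-KO) and 0.0482 (Cic-S-KO) in females in cerebellum, 0.0254 and 0.00682 there without the Hox libraries, and 0.0264 in males in Cic-L-KO cortex. The gain was Grik5 in Cic-L-KO cortex with GC adjustment (-0.10, edgeR adjusted p = 0.0193). Of 102 recomputed counts, 95 stayed within 1.5 times. These are counts of members, and the share over all genes in the same fit is given only where stated. Cic-S-KO cortex gave 3 members in females and 0 in males, and Cic-S-KO cerebellum 0 in males (edgeR). These fits hold fewer libraries. When genotype and sex were fitted together, 0.204% of all genes passed in Cic-S-KO males in cortex and 0.0964% in cerebellum. Cic-S-KO against Cic-L-KO cerebellum gave 11 with DESeq2 and 12 in females, and the Cic-S-KO interaction 6 with no low-count filter, which tests more genes. The ratio of Gabbr1 to Gabbr2 in Cic-L-KO cerebellum was -0.0223 by medians (exact permutation test, adjusted p = 0.648).

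Library numbers pair the samples only by name: deviations correlated over 0.1 in 13 of 22 same-numbered pairs of different genotypes in cerebellum (mean 0.067, from -0.485 to 0.461), in 16 of 22 in cortex (mean 0.171) and in 18 of 23 pairs of cortex with cerebellum. With the replicate block Cic-S-KO cerebellum gave 9 members (edgeR), without Gabra6 (adjusted p = 0.0521) and Grin2c (0.127) among those named, and the paired ratio of Gabbr1 to Gabbr2 in Cic-S-KO cortex was 0.14 (exact sign-flip test, adjusted p = 0.0556). Depth limits Gabrr2, Gabre, Gabrq and Grin3b, which rest on few reads.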
